A study of Saccharomyces cerevisiae with 37 samples.

Results

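The comparison was between the late and the baseline state of 1 budding yeast strain during a copper time course. The late group was the 4 libraries taken 45 and 60 min after copper sulfate was added, and the baseline group was the 4 libraries taken at 0 and 5 min, so 8 of the 37 libraries of the series were compared. The libraries were picked by strain and time label, 2 replicates at each time, with earlier results of these data known. The strain, labelled 25xGFA1 (BMY3661), is haploid, of mating type a, in the BY4741 background, and carries a gene array of 25 copies of GFA1 behind the copper-inducible CUP1 promoter. Its counterpart, labelled WT (BMY1051), is given the same background and no array. Transcript levels of LEU2, HO and some mating genes also differed between the strains.

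Cells of both strains went from rich medium into copper-free minimal medium for about 2 h before the 0 min libraries, which were untreated. All later libraries had received copper sulfate, at 500 µM by the design text and the treatment note, although the growth note writes that dose in mM. The labels name no parallel cultures kept without copper, so effects of the metal and of further time in the new medium cannot be told apart. The 25xGFA1 replicates bear different numbers in the count table although the labels give 1 strain, so they may be separate isolates or cultures of 1 isolate, and the p-values measure the spread between these libraries. By its title the series concerns the timing with which RNA-processing factors reach a transcribed locus, and the comparison asks which transcripts still differed from baseline when the course ended.

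Copper enters yeast as a nutrient and in excess binds thiols, damages proteins and competes with other metals, and the CUP1 promoter is switched on by the copper-sensing factor Cup2. Gfa1 turns fructose-6-phosphate and glutamine into glucosamine-6-phosphate, the first committed step toward chitin, protein glycans and membrane anchors. Cells that divide pass through G1 and S phase with fixed waves of transcripts: factors called MBF and SBF switch on cyclin and DNA replication genes in late G1, histone genes follow in S phase, and both waves depend on whether cells are dividing.

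The 4 late libraries held 514925 to 553286 counts in genes and the 4 baseline libraries 590522 to 662865. Gene reads made up 47.1% to 48.2% of listed reads in late libraries and 50.5% to 52.4% in baseline libraries. Levels are given in CPM, counts scaled to a common library total with the TMM method. In such bulk samples, fewer cells of a type and less RNA per cell cannot be told apart. The mating type label was checked against its markers. The 7 genes specific to a cells summed to 1684 to 2036 CPM in late and 2280 to 2461 CPM in baseline libraries, whereas the 5 genes specific to alpha cells summed to 32.3 to 54.2 CPM and 37.7 to 48.3 CPM, with MF(ALPHA)1 at 0 in all 8 libraries. The 16 genes of meiosis and sporulation summed to 77.7 to 93.2 CPM in late and 69.3 to 83.0 CPM in baseline libraries. MET17 and URA3, which BY4741 lacks, had 0 counts in the 8 libraries, while LEU2, which it also lacks, had 5863 counts over all 18 libraries of the 25xGFA1 strain and 13 over all WT libraries. HIS3, the remaining marker locus, had 214 counts in the late and 265 in the baseline libraries, and 1093 over the 25xGFA1 and 1321 over the WT libraries; its BY4741 allele lacks only an internal stretch, so a 3′-end count there checks nothing.

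GFA1 (YKL104C, chromosome XI, 243220 to 245373, R64), the gene of the array, had the largest change of all genes called. It stood at 11404 and 11505 (45 min) and 8007 and 7757 CPM (60 min) in late libraries, against 1705 and 1894 (0 min) and 2767 and 3199 CPM (5 min) in baseline libraries. Every late library was above every baseline library, and the 60 min pair was below the 45 min pair. The means were 9668 ± 2065 CPM in late and 2391 ± 710 CPM in baseline libraries (SD, n = 4 each), a log2 fold change of 2.04 (SE 0.08; edgeR, adjusted p = 4.82e-14). Its course relative to baseline ran through log2 changes of 1.37 at 10 min, 1.95 at 15 min, 2.30 at 20 min, 2.92 at 25 min and 3.11 at 30 min before 2.31 at 45 min and 1.77 at 60 min. The array and the native gene share their sequence and were not separated, and an annotated reading frame, YKL104W-A, overlaps GFA1; the strand setting of the counting was not given in the sources used here.

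Of 4823 genes tested, 346 (7.17%) were called at an edgeR adjusted p under 0.05, 154 higher (3.19%) and 192 lower (3.98%) at 45 to 60 min. Unadjusted p-values under 0.05 were found for 1024 genes. The changes were mostly small: the median absolute log2 fold change of the called genes was 0.59, and 24 genes rose and 23 fell by at least 1 on the log2 scale. All 346 had the same sign in both replicates, but they were called from these same libraries, so this is no independent support. The replicate numbers are also not shown to pair libraries across times. Of the 346, 308 also had no overlap between late and baseline libraries. The same held for 672 of all tested genes (13.9%), 329 higher (6.82%) and 343 lower (7.11%). The number rests on which libraries set the spread. WT libraries were left out of the main fit because earlier results of these data showed that WT 0 min replicate 1 widens the spread. With the 19 WT libraries in the same fit, the biological coefficient of variation was 19.6% in place of 9.73% and 29 genes were called, 22 higher and 7 lower; with all libraries except WT 0 min replicate 1, which stands apart, 95 were called, 62 higher and 33 lower.

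**Figure D1:**
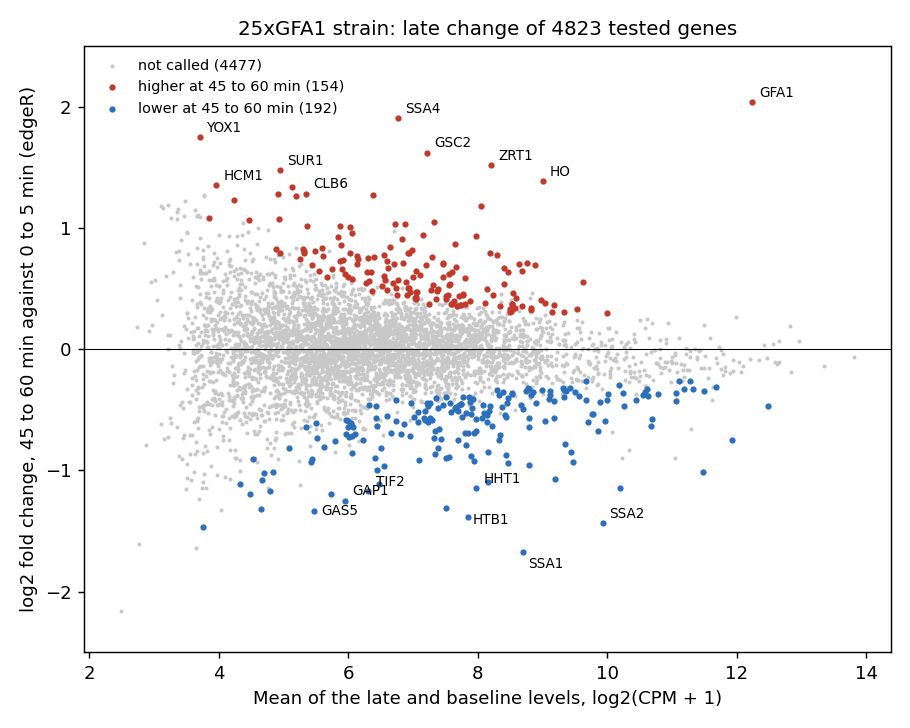
Log2 fold change of each tested gene at 45 to 60 min against 0 to 5 min in the 25xGFA1 strain (vertical axis, edgeR) by the mean of its late and baseline levels, log2(CPM + 1) (horizontal axis); red points are the 154 genes called higher, blue points the 192 called lower and grey points the rest. GFA1 lies far to the right at 2.04, and SSA1, at -1.67, and SSA2, at -1.44, lie lowest among the labelled genes.

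The late state followed a much wider response. The counts of genes called against the same baseline were 9 at 10 min (0.187%), 28 at 15 min (0.581%), 52 at 20 min (1.08%), 760 at 25 min (15.8%) and 1472 at 30 min (30.5%), and then 151 at 45 min (3.13%) and 129 at 60 min (2.67%), each time having 2 libraries and sharing the 4 baseline libraries. Between 60 and 45 min no gene was called by edgeR, DESeq2 or limma (0%), and 164 genes had an unadjusted edgeR p under 0.05. Between 5 and 0 min, GFA1 was the 1 gene called (0.0207%), and 219 genes had an unadjusted p under 0.05. A p that misses the threshold with 2 libraries a time does not show that the pooled times were the same.

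The 12 genes with the largest rise after GFA1, among called genes whose libraries did not overlap, were SSA4, YOX1, GSC2, ZRT1, SUR1, HO, HCM1, TOS2, CLB6, MMP1, YPS3 and SPT21. The 12 with the largest fall were SSA1, SSA2, HTB1, GAS5, MRX21, GRE2, GAP1, HEM13, RPC10, TIF2, HHT1 and MIX17. Of these 24 genes, SSA4, GSC2, ZRT1, SUR1, HO, TOS2, CLB6, YPS3, SPT21, SSA1, SSA2, HTB1, MRX21, GRE2, GAP1, HEM13 and HHT1 were called whichever of the 8 libraries was left out. MMP1, RPC10, MIX17, HCM1, GAS5, YOX1 and TIF2 each lost the call when at least 1 library was left out; TIF2 lost it without 45 min replicate 2, and YOX1 without 0 min replicate 1 or 60 min replicate 2.

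**Figure D2:**
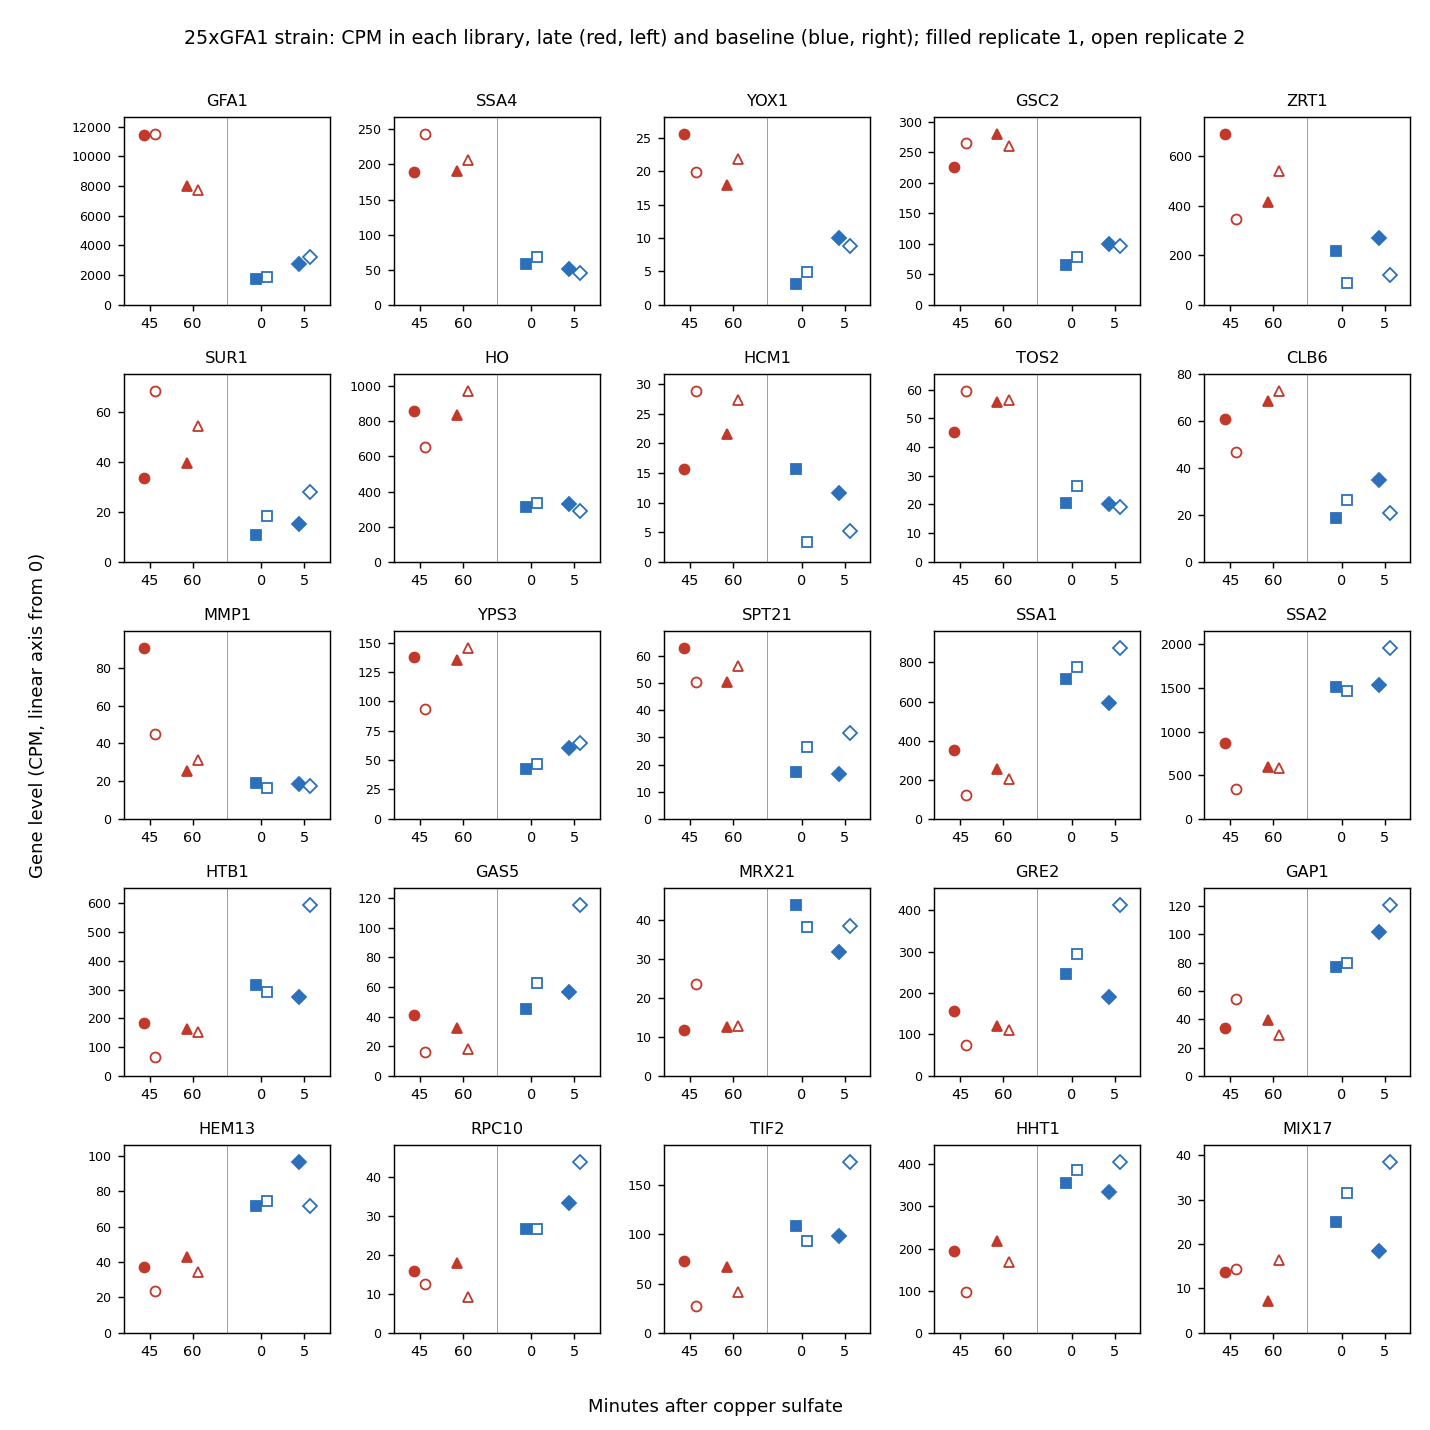
CPM in each of the 8 libraries for GFA1 and, among called genes without overlap and with at least 10 CPM, the 12 that rose most and the 12 that fell most (vertical axes start at 0; horizontal axes give minutes after copper, with the late times in red on the left and the baseline times in blue on the right; filled symbols replicate 1, open symbols replicate 2). Late and baseline libraries do not overlap in any panel, and HTB1, GAS5 and TIF2 have their highest value in 5 min replicate 2 and their lowest in 45 min replicate 2.

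Genes of late G1 and S phase were among those that rose. YOX1, a homeodomain repressor made in G1, had 25.6 and 19.8 (45 min) and 18.0 and 21.8 CPM (60 min) in late libraries, against 3.13 and 4.96 (0 min) and 10.0 and 8.75 CPM (5 min) in baseline libraries. CLB6, a cyclin that starts S phase, had 61.0 and 46.9 (45 min) and 68.3 and 72.8 CPM (60 min) in late libraries, against 18.8 and 26.5 (0 min) and 35.0 and 21.0 CPM (5 min) in baseline libraries. For both genes all late libraries lay above all baseline libraries. The log2 fold change was 1.75 for YOX1 (SE 0.41, adjusted p = 0.0104) and 1.28 for CLB6 (SE 0.24, adjusted p = 0.00213; edgeR for both). CLN2, the G1 cyclin that acts before CLB6, stood at 200.8, 202.0, 226.6 and 287.5 CPM in late libraries against 118.9, 102.5, 86.6 and 131.2 CPM in baseline libraries, a log2 fold change of 1.05 (SE 0.14).

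HCM1, a forkhead activator of S phase genes, averaged 23.4 ± 5.97 CPM in late and 8.96 ± 5.71 CPM in baseline libraries, but its replicates differed: the log2 change was 0.43 in replicate 1 and 2.61 in replicate 2, and 45 min replicate 1, at 15.7 CPM, lay just above 0 min replicate 1, at 15.6 CPM. SPT21, needed for full histone gene transcription, averaged 55.1 ± 5.99 CPM in late and 22.9 ± 7.25 CPM in baseline libraries. TOS2, a protein of the bud neck and growth sites, had 45.3 to 59.5 CPM in late and 19.2 to 26.5 CPM in baseline libraries. SWI4, the DNA-binding subunit of SBF, rose by 0.79 on the log2 scale (SE 0.12, edgeR adjusted p = 0.000125).

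In the list of 34 tested histone, cyclin and daughter-cell genes, 6 rose, namely CLB6, CLN2, DSE4, SIC1, EGT2 and POL30, and 7 fell. The shares of all genes tested were 3.19% and 3.98%. The median log2 fold change of the list was 0.19, against 0.005 over all genes tested. Without 45 min replicate 1 the median of the list changed sign, to -0.05. SIC1, the inhibitor that holds back S phase cyclins, had 123 ± 21.8 CPM in late and 74.3 ± 8.22 CPM in baseline libraries. DSE4 and EGT2, which act when daughter and mother cells separate, had log2 fold changes of 0.87 and 0.67. The chitinase gene CTS1, of the same list, was called lower, at -0.45 (SE 0.13, edgeR adjusted p = 0.0387). The mitotic cyclins were not called: CLB1 had a log2 fold change of -0.35 (adjusted p = 0.44) and CLB2 one of -0.20 (adjusted p = 0.76), and the G1 cyclin CLN1, at 0.49, did not pass either (edgeR adjusted p = 0.0593).

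Because so many cyclin and replication genes stood among the higher ones, a longer list of G1 and S phase transcripts was drawn up after the values had been seen; it describes these libraries and carries no test. Of its 64 tested members 34 were called higher and 0 lower (all genes tested: 3.19% and 3.98%), 59 had a positive log2 fold change and the median was 0.49. Among them were MCD1, SMC1, SMC3 and PDS5, which build or hold cohesin, POL1, POL12 and PRI2 of the polymerase that primes replication, POL2 and DPB2 of polymerase epsilon, and POL30, the sliding clamp. MCD1 had 167 ± 18.8 CPM in late and 81.7 ± 12.7 CPM in baseline libraries (SD, n = 4 each), a log2 fold change of 1.03 (SE 0.13, edgeR adjusted p = 2.51e-05). POL1 had 441 ± 78.2 CPM and 283 ± 28.5 CPM, and RAD27, the nuclease that trims Okazaki fragments, had 204 ± 17.4 CPM and 120 ± 22.1 CPM, in late and baseline libraries in that order. RNR1, the large subunit of ribonucleotide reductase, had 79.0 ± 24.5 CPM in late and 74.3 ± 6.19 CPM in baseline libraries and was not called (edgeR adjusted p = 0.91). The number called higher was 20 to 28 when 1 of the 8 libraries was left out (20 without 60 min replicate 2, 22 without 0 min replicate 1 or 5 min replicate 1), 14 with DESeq2, 18 with all libraries except WT 0 min replicate 1 and 9 with all 37, and 0 were called lower in each of these fits.

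The upstream sequence of such genes often holds the MluI cell cycle box, ACGCGT, to which MBF binds. The windows printed here begin 400 bases before the start codon and are shown because this word stood in more windows of higher genes than of lower genes; capitals mark it in CLB6, HCM1 and MCD1, and in ZRT1 they mark the word bound by the zinc regulator Zap1 (ACCTT, any base, AAGGT). All are read 5′ to 3′ on the gene's strand from the R64 reference, CLB6 at chrVII:706602-706901 (minus strand), HCM1 at chrIII:228910-229209 (plus strand), MCD1 at chrIV:444283-444582 (plus strand) and ZRT1 at chrVII:20578-20877 (plus strand).
CLB6: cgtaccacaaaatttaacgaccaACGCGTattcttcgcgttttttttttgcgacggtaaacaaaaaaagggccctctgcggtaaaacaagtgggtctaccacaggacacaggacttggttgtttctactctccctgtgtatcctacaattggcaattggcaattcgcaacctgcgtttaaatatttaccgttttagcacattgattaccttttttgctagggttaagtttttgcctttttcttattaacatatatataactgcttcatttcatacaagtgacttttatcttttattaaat
HCM1: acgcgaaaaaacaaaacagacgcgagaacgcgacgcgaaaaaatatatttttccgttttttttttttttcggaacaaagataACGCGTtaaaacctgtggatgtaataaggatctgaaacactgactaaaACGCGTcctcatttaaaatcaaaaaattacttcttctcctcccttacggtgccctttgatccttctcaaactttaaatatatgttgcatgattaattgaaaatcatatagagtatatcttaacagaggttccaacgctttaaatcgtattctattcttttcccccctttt
MCD1: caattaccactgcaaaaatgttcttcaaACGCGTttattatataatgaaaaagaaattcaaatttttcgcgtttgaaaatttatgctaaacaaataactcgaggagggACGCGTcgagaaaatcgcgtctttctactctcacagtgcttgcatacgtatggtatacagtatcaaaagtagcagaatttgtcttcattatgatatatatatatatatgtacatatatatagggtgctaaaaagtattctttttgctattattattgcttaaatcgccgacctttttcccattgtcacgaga
ZRT1: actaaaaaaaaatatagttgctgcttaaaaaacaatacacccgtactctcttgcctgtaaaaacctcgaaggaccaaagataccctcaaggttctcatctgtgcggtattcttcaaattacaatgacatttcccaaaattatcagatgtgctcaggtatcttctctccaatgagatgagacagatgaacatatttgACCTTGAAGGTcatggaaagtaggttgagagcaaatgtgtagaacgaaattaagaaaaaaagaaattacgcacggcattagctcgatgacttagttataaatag

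ACGCGT, which reads the same on both strands and was added to the search after the called genes had been seen, stood in 36 of 151 windows of higher genes (23.8%) and 5 of 192 windows of lower genes (2.6%), against 204 of all 4759 windows (4.29%). Read the other way, the 204 genes with the word had a median log2 fold change of 0.17, and the 4555 without it one of -0.004. Taken at each time against baseline, the median of those 204 genes was -0.01 at 10 min, 0.00 at 15 min, 0.03 at 20 min, 0.14 at 25 min, 0.19 at 30 min, 0.13 at 45 min and 0.20 at 60 min, on the log2 scale. The lower genes with the word were SBP1, ACT1, HTA2, SMT3 and HTB2. The SBF word CACGAAA, searched on both strands, stood in 9.27% of windows of higher genes, 3.65% of those of lower genes and 5.19% of all windows. A match is a description of the sequence and shows no binding. YOX1 and CLN2 hold no ACGCGT in their windows, and bases outside the windows were not searched.

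Histone genes went the other way. HTB1, 1 of the 2 genes for histone H2B, had 185.0 and 66.7 (45 min) and 161.8 and 151.0 CPM (60 min) in late libraries, against 317.6 and 292.7 (0 min) and 274.9 and 594.8 CPM (5 min) in baseline libraries. HHT1, a histone H3 gene, had 194.9 and 97.4 (45 min) and 217.6 and 169.2 CPM (60 min) in late libraries, against 356.7 and 387.0 (0 min) and 334.8 and 405.8 CPM (5 min) in baseline libraries. No late library reached a baseline library in either gene, and in both the lowest was 45 min replicate 2. The log2 fold changes were -1.38 for HTB1 (SE 0.26, adjusted p = 0.00183) and -1.15 for HHT1 (SE 0.15, adjusted p = 3.42e-05; edgeR for both).

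Of the 8 core histone genes 6 fell, also HTB2, HTA1, HHF1 and HTA2 (all genes tested: 3.98%). HHF2, at -0.32, and HHT2, at -0.49, did not pass (edgeR adjusted p = 0.0973 and 0.23). The median of the 8 was -0.27 at 20 min, -1.44 at 25 min, -2.29 at 30 min, -0.77 at 45 min and -0.80 at 60 min against the shared baseline, so their lowest point came before the late times. None of the 8 was called (edgeR) once WT libraries entered the fit, with or without WT 0 min replicate 1, at nearly the same median (-0.80). Histone genes of a kind share much of their coding sequence, so their counts are uncertain, and a 3′-end library counts only transcripts with a poly(A) stretch.

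The heat-shock family moved in both directions. SSA4, the stress-inducible cytosolic Hsp70, had 189.0 and 243.5 (45 min) and 190.6 and 205.6 CPM (60 min) in late libraries, against 57.9 and 67.8 (0 min) and 51.6 and 45.5 CPM (5 min) in baseline libraries. SSA1, a main Hsp70 of growing cells, had 350.3 and 122.7 (45 min) and 255.3 and 202.0 CPM (60 min) in late libraries, against 713.3 and 777.2 (0 min) and 591.4 and 874.7 CPM (5 min) in baseline libraries. SSA2, its close relative, had 873.9 and 339.1 (45 min) and 588.0 and 584.1 CPM (60 min) in late libraries, against 1514 and 1460 (0 min) and 1534 and 1957 CPM (5 min) in baseline libraries. In none of these did late and baseline libraries overlap, and both falling genes were lowest in 45 min replicate 2.

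The log2 fold changes were 1.90 for SSA4 (SE 0.15, adjusted p = 1.13e-08), -1.67 for SSA1 (SE 0.23, adjusted p = 7.35e-05) and -1.44 for SSA2 (SE 0.18, adjusted p = 1.77e-05; edgeR). SSA1 and SSA2 are nearly identical in sequence, so the split of reads between them is uncertain. Their falls were larger in replicate 2, -2.39 against -1.12 for SSA1. SSA3, the other inducible Hsp70 gene, was not called, at 0.23 (edgeR adjusted p = 0.48).

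Of 30 tested chaperones under the heat-shock factor Hsf1, 2 rose and 12 fell (all genes tested: 3.19% and 3.98%), and the median log2 fold change was -0.35; with all 37 libraries in the fit 1 rose and 2 fell, and without WT 0 min replicate 1 in it 1 rose and 8 fell. The other riser was BTN2, which sorts misfolded proteins, at 0.91 (SE 0.16). HSC82, the Hsp90 gene expressed throughout growth, averaged 2993 ± 203 CPM in late and 5025 ± 265 CPM in baseline libraries, a log2 fold change of -0.75 (SE 0.07, edgeR adjusted p = 8.88e-08). The remaining members that fell were MBF1, which bridges activators to the transcription machinery, the Hsp60 and Hsp10 pair of the mitochondrial folding chamber (HSP60, HSP10), the Hsp70 and Hsp90 partners CPR6, STI1, SGT2, SSE1 and YDJ1, and HSP82. HSF1 itself, not a member of that list, rose by 0.60 on the log2 scale (SE 0.17, edgeR adjusted p = 0.0308). HSP104, the disaggregase, had 182.9 ± 30.6 CPM and 251.2 ± 100.9 CPM in late and baseline libraries and was not called (edgeR adjusted p = 0.25). The heat-shock word GAANNTTC stood in 13.9% of windows of higher genes and 17.2% of those of lower genes, against 12.5% of all windows.

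**Figure D3:**
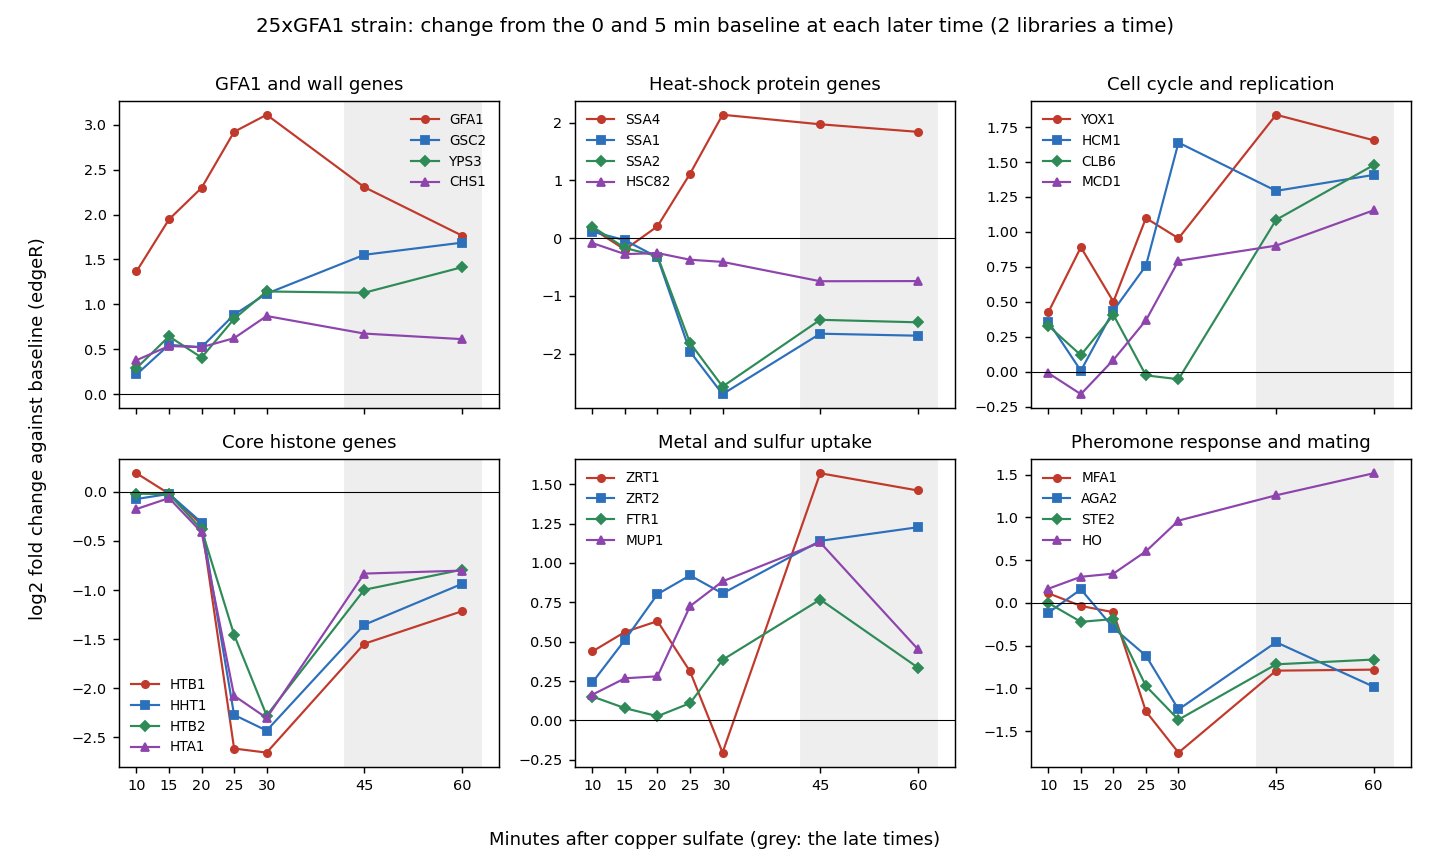
Log2 fold change against the 0 and 5 min baseline (vertical axis, edgeR) at each later time in minutes after copper (horizontal axis) for 24 genes in 6 groups, 2 libraries a time, with the late times shaded. SSA1, SSA2 and the histone genes were lower at 30 min than at 45 and 60 min, SSA4 was at 2.13 at 30 min, 1.97 at 45 min and 1.84 at 60 min, and CLB6 was above baseline at 45 and 60 min but at -0.05 at 30 min.

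Cell wall genes were called in both directions. GSC2, the stress-induced glucan synthase, had 226.3 and 265.2 (45 min) and 280.5 and 260.2 CPM (60 min) in late libraries, against 65.7 and 77.7 (0 min) and 100.0 and 96.2 CPM (5 min) in baseline libraries. YPS3, a surface protease, had 137.8 and 93.8 (45 min) and 134.9 and 145.6 CPM (60 min) in late libraries, against 42.2 and 46.3 (0 min) and 60.0 and 64.7 CPM (5 min) in baseline libraries. Neither gene overlapped between the groups. The log2 fold change was 1.62 for GSC2 (SE 0.12, adjusted p = 3.13e-09) and 1.27 for YPS3 (SE 0.16, adjusted p = 1.79e-05; edgeR).

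FKS1, the glucan synthase of unstressed cells, had 1656 ± 149 CPM and 1555 ± 124 CPM in late and baseline libraries and was not called (edgeR adjusted p = 0.59), and neither was SLT2, the kinase of the wall integrity pathway, at -0.04 (edgeR adjusted p = 0.94). In the list of 24 wall integrity and glucan genes, 2 rose (GSC2, SWI4) and 4 fell (GAS5, GAS3, BGL2, GAS1). Of all genes tested 3.19% rose and 3.98% fell. GAS5, which elongates glucan chains, had 41.3 and 16.2 (45 min) and 32.4 and 18.2 CPM (60 min) in late libraries, against 45.4 and 62.8 (0 min) and 56.6 and 115.5 CPM (5 min) in baseline libraries, and its log2 change was -0.47 in replicate 1 and -2.28 in replicate 2. Of 24 structural wall proteins 2 rose (YPS3, NCW2) and 2 fell (ECM33, UTR2), against the same shares of all genes.

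Of 16 tested hexosamine and chitin genes 3 rose, GFA1 itself, CHS1 and CHS5, and 1 fell, the chitinase CTS1. The shares of all genes tested were 3.19% and 3.98%. CHS1, a chitin synthase that repairs the wall after cell division, had 513.7, 528.5, 492.7 and 505.8 CPM in late and 319.1, 287.7, 384.8 and 316.6 CPM in baseline libraries, a log2 fold change of 0.64 (SE 0.09, edgeR adjusted p = 0.000104). The enzymes after Gfa1 were not called: GNA1 had a log2 fold change of -0.54 (adjusted p = 0.36), PCM1 0.20 (adjusted p = 0.38) and QRI1 -0.37 (adjusted p = 0.20; edgeR for all). CHS3, which makes most of the chitin, had 93.9 ± 17.9 CPM and 104 ± 10.2 CPM in late and baseline libraries.

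Some transporters of zinc, iron and sulfur compounds rose. ZRT1, the high-affinity zinc transporter, had 690.9 and 346.3 (45 min) and 415.4 and 542.2 CPM (60 min) in late libraries, against 217.4 and 87.6 (0 min) and 271.5 and 120.7 CPM (5 min) in baseline libraries. ZRT2, the low-affinity one, had 354.3 and 413.1 (45 min) and 411.8 and 403.9 CPM (60 min) in late libraries, against 172.1 and 142.2 (0 min) and 194.9 and 190.7 CPM (5 min) in baseline libraries. The groups did not overlap in either gene; replicate 2 of ZRT1 was below replicate 1 at both baseline times. Log2 fold changes were 1.51 for ZRT1 (SE 0.32, adjusted p = 0.00454) and 1.18 for ZRT2 (SE 0.10, adjusted p = 5.82e-08; edgeR).

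Of 18 tested genes under the zinc regulator Zap1, these 2 rose and none fell (all genes tested: 3.19% and 3.98%). The median of the list was -0.05. ZAP1 itself, at 0.33, ZPS1, at 0.22, and the vacuolar zinc transporter gene ZRC1, at -0.21, did not pass (edgeR adjusted p = 0.64, 0.76 and 0.53). The Zap1 word, added to the search after the values were seen and read on both strands, stood in 2 of the 151 windows of higher genes and in 5 of all 4759 windows; ZRT1 holds it and ZRT2 does not.

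Among 21 tested genes of iron uptake 6 rose and 0 fell (all genes tested: 3.19% and 3.98%), with a median log2 fold change of 0.32. The count was 3 without 0 min replicate 1, 0 min replicate 2, 5 min replicate 2 or 60 min replicate 2, and 0 with all 37 libraries in the fit. ARN2 kept its call in 3 of the 8 fits that left out 1 library. They were FIT2 and FIT3, wall proteins that retain iron carriers, ARN2, a siderophore transporter, the permease and oxidase pair FTR1 and FET3, and the regulator AFT1. FTR1 had 764 to 1176 CPM in late and 597 to 776 CPM in baseline libraries, which overlapped. FIT2 had 307.0, 339.1, 312.9 and 418.5 CPM in late and 231.5, 157.1, 191.6 and 141.7 CPM in baseline libraries, a log2 fold change of 0.93 (SE 0.17). At 30 min FIT2 had stood at -0.43 and ARN2 at -0.23 against the same baseline. Of 12 tested genes of copper handling 1 rose, FRE1, a reductase of copper and iron at the cell surface, at 0.92 (SE 0.22, edgeR adjusted p = 0.0123). The metallothionein gene CRS5, at 0.76, and SOD1, at 0.27, were not called (edgeR adjusted p = 0.0569 and 0.0612). CUP1-1 and CUP1-2, the main metallothionein genes, had 0 counts in the 8 libraries compared, as in all 37, so the promoter's native gene was not measured.

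Of 30 tested genes of sulfate assimilation and methionine 7 rose and 1 fell (all genes tested: 3.19% and 3.98%), and the median log2 fold change was 0.34. The number that rose was 4 without 0 min replicate 1 or 60 min replicate 1, 3 without 0 min replicate 2 or 60 min replicate 2, and 1 with all 37 libraries in the fit. MMP1 kept its call in 1 of the 8 fits that left out 1 library and SUL2 in 4 of 8. The risers were the permeases MMP1 (S-methylmethionine), SUL2 (sulfate), MUP1 (methionine) and SAM3 (S-adenosylmethionine), and MET14, MET16 and MET10 of the sulfate reduction route. MMP1 had 90.5 and 45.1 CPM at 45 min but 25.2 and 30.9 CPM at 60 min, against 16.5 to 18.8 CPM in baseline libraries. SAH1, which clears S-adenosylhomocysteine, fell by 0.92 on the log2 scale (SE 0.15). MET14 had stood at -1.07 at 30 min and was at 1.15 at 45 min and 0.77 at 60 min.

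Some ribosomal protein and glycolytic genes fell. Of 138 ribosomal protein genes 18 fell and 1, RPL22B, rose (all genes tested: 3.98% and 3.19%), and the list's median log2 fold change was -0.12. RPS19B, the most changed of those that fell, had 651.5 and 303.0 (45 min) and 624.0 and 464.0 CPM (60 min) in late libraries, against 946.4 and 810.3 (0 min) and 857.9 and 1289 CPM (5 min) in baseline libraries. This count depended on single libraries: 54 were called lower without 45 min replicate 1, 4 without 45 min replicate 2, 3 without 60 min replicate 2, 5 without 0 min replicate 1 and 6 without 5 min replicate 2. With DESeq2 8 were called lower, and with WT libraries in the fit 0. Ribosomal protein genes mostly come as near-identical pairs, so single members are uncertain. Of 64 ribosome assembly genes of the small subunit 1 rose (RRP7) and 0 fell, and of 73 for the large subunit 2 rose (NOG2, CGR1) and 0 fell, with medians of 0.07 and 0.11.

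Of 20 glycolytic genes 5 fell, PGK1, PGI1, PFK2, PFK1 and ADH1, and 1 rose, TDH1 (all genes tested: 3.98% and 3.19%). PGK1 had 1380 and 304.8 (45 min) and 859.5 and 582.3 CPM (60 min) in late libraries, against 1425 and 1235 (0 min) and 1423 and 3011 CPM (5 min) in baseline libraries. Replicate 1 of PGK1 at 45 min was close to baseline, and the log2 change was -0.39 in replicate 1 and -2.19 in replicate 2. PGI1, the isomerase that makes the sugar phosphate used by Gfa1, was more even, at 897.5, 775.6, 859.5 and 715.1 CPM in late and 1278, 1177, 1208 and 1223 CPM in baseline libraries, a log2 fold change of -0.59 (SE 0.10, edgeR adjusted p = 0.00105). Of the 192 lower genes 145 had the larger fall in replicate 2. Median log2 changes of the lower genes were -0.45 in replicate 1 and -0.68 in replicate 2. Of the 154 higher genes 86 had the larger rise in replicate 2, with medians of 0.60 and 0.63. Over all tested genes the medians were -0.0008 and 0.007. The replicate numbers are not shown to pair libraries across times, so these values compare sets of libraries.

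GAP1, the general amino acid permease, had 33.5 and 54.1 (45 min) and 39.6 and 29.1 CPM (60 min) in late libraries, against 76.7 and 79.4 (0 min) and 101.6 and 120.7 CPM (5 min) in baseline libraries. HEM13, an enzyme of heme synthesis, had 37.4 and 23.4 (45 min) and 43.2 and 34.6 CPM (60 min) in late libraries, against 72.0 and 74.4 (0 min) and 96.6 and 71.7 CPM (5 min) in baseline libraries. Both were separated between the groups and fell to a similar extent in both replicates, by 1.27 and 1.29 for GAP1 and by 1.04 and 1.34 for HEM13 on the log2 scale. GRE2, a methylglyoxal reductase, and TIF2, 1 of the paired genes for the initiation factor eIF4A, fell more in replicate 2, with -1.94 against -0.67 and -1.90 against -0.56. RPC10, a small subunit common to the RNA polymerases, and MIX17 and MRX21, of the mitochondrion, were low throughout, at no more than 43.8 CPM in any of the 8 libraries.

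**Figure D4:**
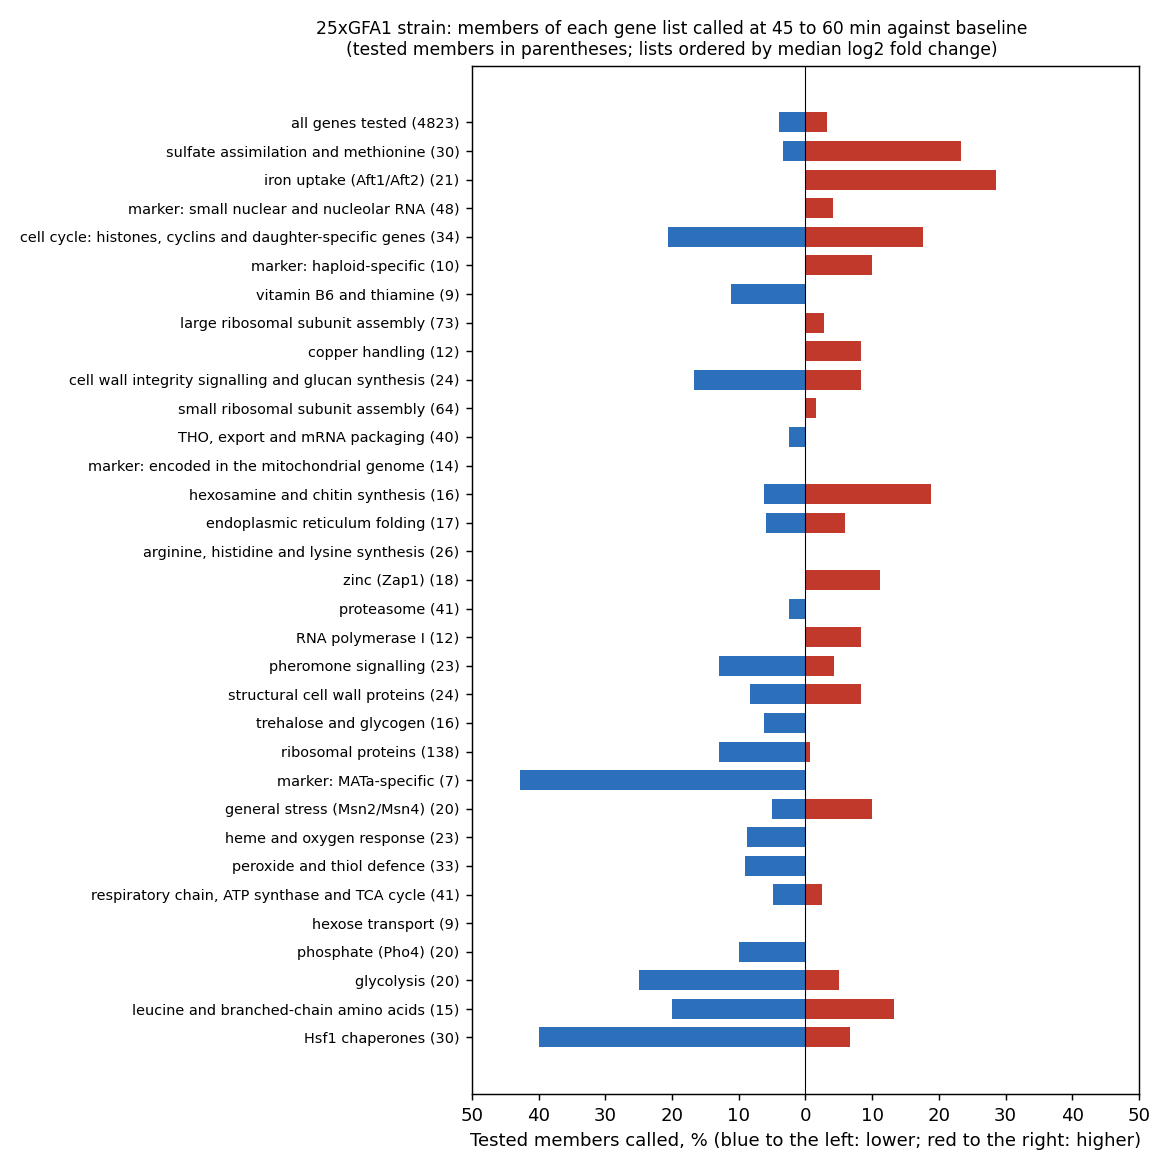
Share of the tested members of each gene list that were called lower (blue, to the left) and higher (red, to the right) at 45 to 60 min, in percent, with the number tested in parentheses and all genes tested in the top bar; lists with under 5 tested members are left out. The a-specific genes (3 of 7 lower), Hsf1 chaperones (12 of 30 lower), the cell cycle list (6 higher and 7 lower of 34), iron uptake (6 of 21 higher) and sulfate and methionine (7 of 30 higher) have longer bars than all genes, at 3.19% higher and 3.98% lower.

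Genes of mating identity also shifted. MFA1, which encodes the a-factor pheromone, had 572.8, 418.5, 604.2 and 393.0 CPM in late and 907.3, 820.2, 749.6 and 951.6 CPM in baseline libraries, and STE2, the alpha-factor receptor, had 173.2, 169.6, 188.8 and 167.4 CPM and 300.3, 307.6, 268.2 and 255.4 CPM. Late libraries of both lay below all baseline libraries. Of the 7 a-specific genes 3 fell, MFA1, AGA2 and STE2 (all genes tested: 3.98%). AGA1, the anchor of AGA2, fell by 0.89 on the log2 scale (SE 0.13, edgeR adjusted p = 0.000189). Of 10 haploid-specific genes 1 rose, HO, the mating-type switching nuclease (all genes tested: 3.19%). HO had 858.2 and 656.6 (45 min) and 836.1 and 973.5 CPM (60 min) in late libraries, against 314.4 and 332.4 (0 min) and 331.5 and 286.9 CPM (5 min) in baseline libraries (log2 fold change 1.39, SE 0.11, edgeR adjusted p = 7.85e-09). In the fit over 37 libraries HO averaged 857 ± 134 CPM in the late 25xGFA1 libraries and 63.5 ± 11.7 CPM in the late WT libraries (n = 4 each); at baseline it averaged 331 ± 21.5 CPM in 25xGFA1 (n = 4) and 38.7 ± 9.82 CPM in WT (n = 5). The 3 called a-specific genes also differed in level between the strains in that fit. Late STE2 averaged 180 ± 9.82 CPM in 25xGFA1 and 25.0 ± 5.06 CPM in WT. Late MFA1 averaged 513 ± 110 CPM and 56.6 ± 13.8 CPM, and late AGA2 53.1 ± 19.4 CPM and 6.00 ± 3.41 CPM, in that order. The mating type check was made in 25xGFA1 libraries only. The labels used here do not say where the array sits, and the reason for these gaps in level was not tested.

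Further lists are read against all genes tested, of which 3.19% rose and 3.98% fell. None of 26 genes of arginine, histidine and lysine synthesis was called, 1 of 41 proteasome genes fell (PRE4), 1 of 16 trehalose and glycogen genes fell (UGP1), and of 20 general stress genes 2 rose (SSA4, HOR7) and 1 fell (PNC1). CTT1, the cytosolic catalase, had 15.7 ± 4.80 CPM in late and 20.0 ± 6.89 CPM in baseline libraries, and HSP12 35.5 ± 24.8 CPM and 32.6 ± 33.3 CPM. Of 40 genes for THO, mRNA export and packaging, 1 fell, the export adaptor YRA1, which had 100.4, 81.2, 115.1 and 96.4 CPM in late and 162.7, 175.3, 173.2 and 232.7 CPM in baseline libraries (log2 fold change -0.92, SE 0.14, edgeR adjusted p = 0.0003). Of 33 genes of peroxide and thiol defence 3 fell (OYE2, SOD2, TRX1) and none rose.

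The called genes differed in length and level. The median annotated length was 1641 bases for the 154 higher genes and 1098 bases for the 192 lower ones, against 1287 bases for all tested genes with an annotation, and the median level was 133 CPM and 243 CPM, against 73.0 CPM. The median GC content was 39.6% and 41.3%, against 39.5%. Small nuclear and nucleolar RNAs summed to 9576 to 10334 CPM in late and 7567 to 8904 CPM in baseline libraries. Of the 48 tested, 2 rose (SNR31, SNR87), a share near the 3.19% of all genes tested. Transcripts of the mitochondrial genome summed to 10504 to 11905 CPM and 8608 to 11319 CPM. These shifts went along with the calls, and their part in them was not tested.

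Whether a late change differed between the strains was tested as a difference of differences in the fit over all 37 libraries. No gene of 4995 was called by edgeR, DESeq2 or limma, and 142 had an unadjusted edgeR p under 0.05 (96 with DESeq2). GFA1 changed by 2.01 in the 25xGFA1 strain and 0.09 in WT, a difference of 1.92 (SE 0.48; edgeR adjusted p = 1), so at this spread not even the array gene passed. Leaving out WT 0 min replicate 1 turned the WT change of GFA1 to 0.65 and the difference to 1.37 (edgeR adjusted p = 0.0907). A p that misses the threshold does not show that the strains acted alike. The strains also differed in level for LEU2, HO, STE2, MFA1 and AGA2, so the array cannot be told apart from other strain differences.

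**Figure D5:**
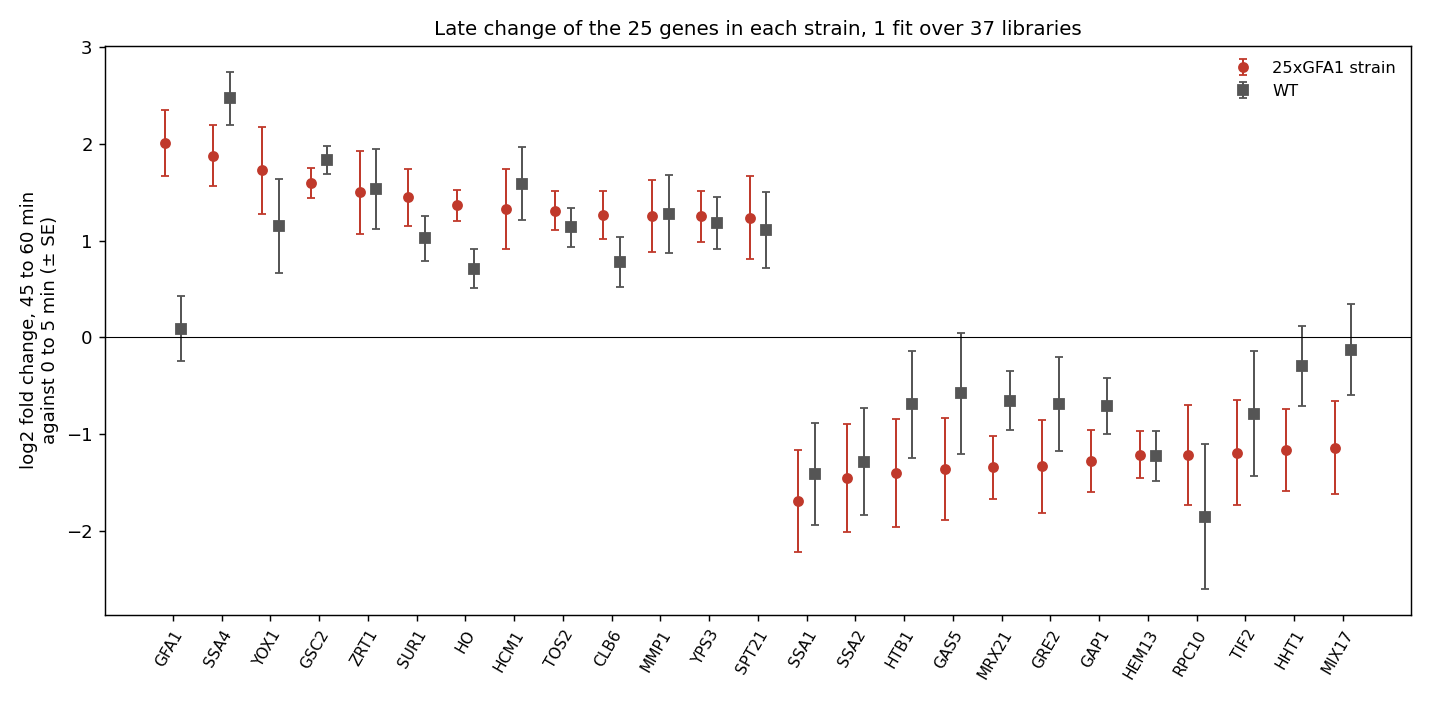
Late change (log2 fold change, 45 to 60 min against 0 to 5 min, with its SE) of GFA1 and, among called genes without overlap and with at least 10 CPM, the 12 that rose most and the 12 that fell most, in the 25xGFA1 strain (red circles) and in WT (grey squares), from 1 edgeR fit over 37 libraries. Apart from GFA1, whose WT value lies near 0, the WT values of all these genes have the same sign as those of the 25xGFA1 strain. Those of MIX17 (-0.13, SE 0.47), HHT1 (-0.30, SE 0.41) and GAS5 (-0.58, SE 0.62) also lie within their SE of 0. All WT values here include WT 0 min replicate 1, which stands apart. Without it MIX17 was at -0.27, HHT1 at -0.48 and GAS5 at -0.64.

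The 12 highest and 12 lowest genes besides GFA1, among called genes without overlap and with at least 10 CPM, had late changes of the same sign in WT, each strain being set against its own baseline. In the fit over 37 libraries the WT change was called for SSA4, GSC2, ZRT1, SUR1, HCM1, TOS2, YPS3 and HEM13 only. The 25xGFA1 change was called there for SSA4, GSC2, SUR1, HO, TOS2, CLB6, YPS3 and HEM13 only. A shared sign alone does not show a shared change. The late change in 25xGFA1 and in WT was 1.88 (SE 0.31) and 2.47 (SE 0.27) for SSA4, 1.60 (SE 0.15) and 1.83 (SE 0.14) for GSC2, and -1.69 (SE 0.53) and -1.41 (SE 0.53) for SSA1, in that order. Without WT 0 min replicate 1 the WT change was 2.90 for SSA4, 1.86 for GSC2 and -1.63 for SSA1. YPS3 changed by 1.25 in 25xGFA1 and 1.18 in WT, CLB6 by 1.26 and 0.78, HCM1 by 1.33 and 1.59, and HO by 1.37 and 0.71. The median over genes with ACGCGT upstream was 0.15 in 25xGFA1 and 0.16 in WT, and with 5 min alone as the baseline 0.15 and 0.25. For the 8 core histone genes it was -0.80 in 25xGFA1 and -0.38 in WT, and with 5 min alone as the baseline -0.76 and -0.77. Without WT 0 min replicate 1 the WT median was 0.21 for genes with ACGCGT and -0.56 for core histone genes. In level, SSA4 averaged 214 ± 26.2 CPM in the late 25xGFA1 libraries and 657 ± 139 CPM in the late WT libraries, with 58.4 ± 9.97 CPM and 141 ± 123 CPM at baseline. The WT baseline libraries, WT 0 min replicate 1 among them, ran from 68.7 to 359 CPM for SSA4.

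Among genes tested in both the 18-library and the 37-library fit, OPI3, a methyltransferase of phosphatidylcholine synthesis, came closest to a strain difference besides GFA1. It had 360.2 and 474.4 (45 min) and 408.2 and 367.6 CPM (60 min) in late libraries, against 1059 and 831.8 (0 min) and 879.6 and 640.2 CPM (5 min) in baseline libraries, in the 25xGFA1 strain. Every late library lay below every baseline library, and the log2 fold change was -1.07 (SE 0.13, edgeR adjusted p = 1.51e-05). In the fit over 37 libraries its change was -1.10 (SE 0.22) in 25xGFA1 and 0.10 (SE 0.21) in WT, a difference of -1.19 (SE 0.30; edgeR adjusted p = 1). Without WT 0 min replicate 1 the difference was -1.02 and was the 1 called in that fit (edgeR adjusted p = 0.033). SSA3 and SLX9, the next of these genes by p, had late changes of 0.21 in 25xGFA1 and 1.07 in WT, and of -0.08 in 25xGFA1 and 0.66 in WT, and neither difference was called. YAF9 was also among the 5 genes with the smallest p for the strain difference. It was not tested in the 18-library fit, and its values are not given here.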

How the data were processed

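Poly(A) RNA 3′ ends were sequenced (QuantSeq kit, per the labels' protocols). The deposited values are raw read counts per gene, made by the authors on build R64 with tools that include STAR 2.7.10a and HTSeq 2.0.2, besides SAMtools 1.10 and FastQC 0.11.9, per the submitters' processing notes; the strand setting and annotation release are not given in the sources used here. Reads carry no molecular identifiers here, so counting error understates the error of single values. The 5 summary lines of the count table were kept out of library sizes and tests. Of 6464 gene IDs 6461 matched the reference annotation.

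The 18 libraries of the 25xGFA1 strain were fitted as 9 time groups with edgeR 4.0.16 in R 4.3.3 (quasi-likelihood, TMM, filter at a minimum count of 10, Benjamini-Hochberg adjusted p under 0.05). The strain difference used all 37 libraries in 18 groups. DESeq2 1.42.0 and limma 3.58.1, other filters, scalings, baselines and library sets were alternatives. SE is the log2 fold change over the square root of F. On simulated data for the late comparison, run on 4747 genes, edgeR called 96% of 100 genes changed by 1 and 100% of 100 changed by 1.5 on the log2 scale, with 12 false calls. The simulation gave all genes the same dispersion and no replicate effects, and changed no low-count genes. It checks that the code runs as meant. Its rates need not hold for these libraries, where the median absolute change of called genes was 0.59.

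The rule for named genes was GFA1, the 12 called genes with the largest rise and the 12 with the largest fall among those without overlap and with a mean of at least 10 CPM in either group, up to 4 called members of each list, every called marker, and the 5 smallest p-values of each other comparison. Further list members and uncalled genes are named as background to those lists and were chosen after their values were seen. The libraries compared and the gene lists were chosen with earlier results of these data known.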

Additional observations from a re-analysis of the deposited data

Results flagged for a closer look

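In 13 of 192 groups of 4 libraries tested, 1 library stood apart from the other 3 by Dixon's gap. Chance gives about 1 in 20, so the count was near what chance gives. Each group holds 2 times, and genes of the same library are not independent. Library 5 min replicate 2 was the high one for 4 falling genes at baseline: HTB1 had 595 CPM there against 275 to 318 CPM in the others, SSA2 1957 CPM against 1460 to 1534 CPM, PGK1 3011 CPM against 1235 to 1425 CPM, and RPL8A 689 CPM against 373 to 421 CPM. Library 5 min replicate 1 was high for HEM13, with 96.6 CPM against 71.7 to 74.4 CPM, and for FTR1, with 776 CPM against 597 to 616 CPM. At 0 min, replicate 2 was high for TOS2, with 26.5 CPM against 19.2 to 20.3 CPM, and replicate 1 for RPL22B, with 144 CPM against 104 to 107 CPM.

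Among the late libraries, 45 min replicate 2 was low for KAR2, an endoplasmic reticulum chaperone, with 345 CPM against 407 to 417 CPM, and high for MRX21, with 23.4 CPM against 11.8 to 12.7 CPM. Library 45 min replicate 1 was low for ZRT2, with 354 CPM against 404 to 413 CPM, and high for FIG2, a mating adhesin, with 66.9 CPM against 43.3 to 46.8 CPM. Library 60 min replicate 1 was low for YDR003W-A, with 34.2 CPM against 41.3 to 41.8 CPM.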

How the results depend on the processing

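The count of 346 called genes fell outside 1.5 times its size in these settings: 151 with the DESeq2 Wald test, 29 with all 37 libraries, 95 with all libraries except WT 0 min replicate 1 (chosen after seeing the data), 154 with 0 min alone as baseline, 181 with 5 min alone, 151 with 45 min alone and 129 with 60 min alone. The time subsets use fewer libraries; for the other settings the cause was not tested. Leaving out 1 of the 8 libraries gave 162 (without 45 min replicate 2) to 419 (without 45 min replicate 1) genes, with 170 without 60 min replicate 2, 194 without 0 min replicate 1 and 219 without 5 min replicate 2. GFA1 stayed called, at 1.67 to 2.40. Of 87 named called genes 45 were called in all 8 such fits, 11 in every setting, and none changed sign. Without the filter on low counts 2 genes were called between 60 and 45 min and 3 between 5 and 0 min. The 1 gene called between 5 and 0 min gave 0 with limma, with GFA1 left out and with all 37 libraries, and 0 to 1 when 1 library was left out. The strain difference gave 0 to 1 calls when 1 library was left out: OPI3 without WT 0 min replicate 1, GFA1 without WT 0 min replicate 3. With the replicate number as a block the counts were 421, 1 (GFA1, between 60 and 45 min), 1 and 1 (GFA1, strain difference); same-numbered libraries had a median correlation of 0.083 over 36 pairs, so the numbers are not shown to pair the samples. The other alternatives, another scaling, a minimum count of 30 and the 8 libraries alone, kept the count within 1.5 times.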

Other observations

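Further groups among the lower genes were assembled after the values had been seen, so they are descriptions with no test. Of 20 tested genes of phospholipid synthesis under Ino2 and Ino4, 5 fell and 0 rose (all genes tested: 3.98% and 3.19%), with a median log2 fold change of -0.30. Those that fell were OPI3, CHO1, CHO2, the inositol transporter ITR1 and the choline transporter HNM1, and with all 37 libraries in the fit 1 fell. CHO1, the phosphatidylserine synthase, had 161.4, 223.7, 275.1 and 189.2 CPM in late libraries, against 378.6, 418.4, 361.5 and 370.9 CPM in baseline libraries, which did not overlap. Its log2 fold change was -0.85 (SE 0.13, edgeR adjusted p = 0.000199).

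Of 23 genes of nitrogen and glutamine use 8 fell and 0 rose, with a median log2 fold change of -0.18 and 8 positive values (all genes tested: 3.98% fell and 3.19% rose); 5 fell without 45 min replicate 2 and 2 with all 37 libraries. GLN1, the glutamine synthetase that supplies the amide donor used by Gfa1, had 194.9, 171.4, 223.0 and 187.4 CPM in late libraries, against 342.6, 406.8, 394.8 and 528.3 CPM in baseline libraries, a log2 fold change of -1.10 (SE 0.15, edgeR adjusted p = 7.78e-05). CAR1, the arginase, averaged 174 ± 24.0 CPM in late and 322 ± 38.6 CPM in baseline libraries. Of 12 genes of pyrimidine synthesis and uptake 5 fell and 0 rose, against the same shares of all genes, with a median of -0.29. The count was 2 without 0 min replicate 1 or 45 min replicate 2, 3 without 5 min replicate 1 or either 60 min library, and 0 with all 37 libraries. URA2, its first enzyme, averaged 1313 ± 154 CPM in late and 2037 ± 134 CPM in baseline libraries (SD, n = 4 each), and the uracil permease FUR4 17.3 ± 8.94 CPM and 34.3 ± 3.15 CPM.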
